A study of Homo sapiens with 6 samples.

Results

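INSIG1, SREBF2, STARD4 and GRAMD1B, a set of sterol sensing and sterol transport genes, were taken as all probe sets that the array annotation names for these genes. Each had 1 probe set, so they made up 4 of the 14884 genes with a named probe set. The 4 genes were chosen by their measured values on these same arrays, in both comparisons with vector, so their levels and differences below are a description and carry no test.

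The RNA came from MDA-MB-231-Luc-D3H1 cells, in which the triple-negative human breast cancer line MDA-MB-231 has been made to express luciferase. All groups were stable lines carrying the pMKO.1-GFP plasmid, either empty (vector) or with 1 of 2 short hairpin RNAs against LincIN, a long intergenic noncoding RNA (shRNA1, the sh681 hairpin, and shRNA2, the shsiA hairpin). Each group had 2 arrays, 6 in all, and the submitters state that the RNA came from 2 independent experiments. Directions throughout follow the group labels of the arrays. The study's own list of top genes gives the reverse direction for INSIG1, SREBF2, STARD4 and GRAMD1B. Every group is the output of 1 stable line as far as the labels tell. A difference between hairpins, or between a hairpin and vector, thus cannot be told apart from a difference between lines. With an empty vector as control, carrying any hairpin cannot be told apart from loss of LincIN. Each SE and p-value below rests on the spread between arrays, not between lines. Fewer expressing cells and less RNA per cell cannot be told apart either.

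Cells hold membrane cholesterol within narrow bounds through a sensor in the endoplasmic reticulum. When sterols are plentiful, INSIG proteins bind SCAP and keep the SREBP transcription factors in that membrane. When sterols fall, SCAP escorts SREBPs to the Golgi, where proteases release the part that enters the nucleus and turns on genes of cholesterol synthesis and uptake. INSIG1 is the INSIG protein whose own gene is an SREBP target, and SREBF2 encodes the SREBP most devoted to cholesterol. Once made or taken up, cholesterol moves between membranes on carrier proteins. STARD4 is a soluble sterol carrier of the cytosol, and GRAMD1B, also called Aster-B, sits in the endoplasmic reticulum and draws cholesterol from the plasma membrane.

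The promoters are shown because INSIG1, SREBF2 and STARD4 shared a direction across the arrays and each had an entry in RefSeq's promoter table (GRCh38.p14). The 250 bases before the transcript start are given 5′ to 3′ on the strand of the gene, at chr7:155297628-155297877 (plus strand) for INSIG1, chr22:41832855-41833104 (plus strand) for SREBF2 and chr5:111512536-111512785 (minus strand) for STARD4. Capitals mark matches on either strand to a sterol regulatory element (TCACNCCAC), to the CACGTG E-box and to the CCAAT box that the factor NF-Y binds, read as ATTGG on the opposite strand.
INSIG1: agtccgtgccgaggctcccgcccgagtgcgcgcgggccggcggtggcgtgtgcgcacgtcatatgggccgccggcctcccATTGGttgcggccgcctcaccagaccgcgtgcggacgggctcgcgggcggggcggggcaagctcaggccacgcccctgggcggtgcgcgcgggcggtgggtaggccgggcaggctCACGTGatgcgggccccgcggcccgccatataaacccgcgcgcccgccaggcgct
SREBF2: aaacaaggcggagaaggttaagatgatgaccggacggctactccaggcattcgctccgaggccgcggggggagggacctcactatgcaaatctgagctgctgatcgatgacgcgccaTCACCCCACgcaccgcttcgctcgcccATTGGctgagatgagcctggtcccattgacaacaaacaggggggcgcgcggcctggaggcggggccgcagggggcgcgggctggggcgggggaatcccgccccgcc
STARD4: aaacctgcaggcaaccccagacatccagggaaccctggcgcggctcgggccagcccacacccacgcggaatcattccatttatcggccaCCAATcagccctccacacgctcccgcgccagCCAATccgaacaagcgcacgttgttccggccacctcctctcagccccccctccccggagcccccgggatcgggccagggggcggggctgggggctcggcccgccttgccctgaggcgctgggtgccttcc

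Motifs were searched on both strands from 250 bases before to 50 bases after each start. The sterol regulatory element, the site SREBPs bind, was found in the SREBF2 promoter as TCACCCCAC, from position -133 to -125 relative to the start. The same letters occurred in 396 of the 35116 promoters in the table (1.13%), and the INSIG1 and STARD4 windows held no match. A CACGTG E-box lay at -55 to -50 in INSIG1, and 7.26% of all promoters had one. CCAAT boxes lay at -170 to -166 in INSIG1, at -106 to -102 in SREBF2, and at both -161 to -157 and -130 to -126 in STARD4. A CCAAT box was present in 34.6% of all promoters. The GC-rich GGGCGG box bound by Sp1, left in lower case, matched 6 times in INSIG1, 3 times in SREBF2 and once in STARD4, against at least 1 match in 45.0% of all promoters. In INSIG1 the matches at -126 to -121 and -121 to -116 overlapped by 1 base, as did those at -10 to -5 and -5 to 1 in SREBF2. No other motif matches overlapped. A match, or the lack of one, is a description of the letters only.

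**Figure D1:**
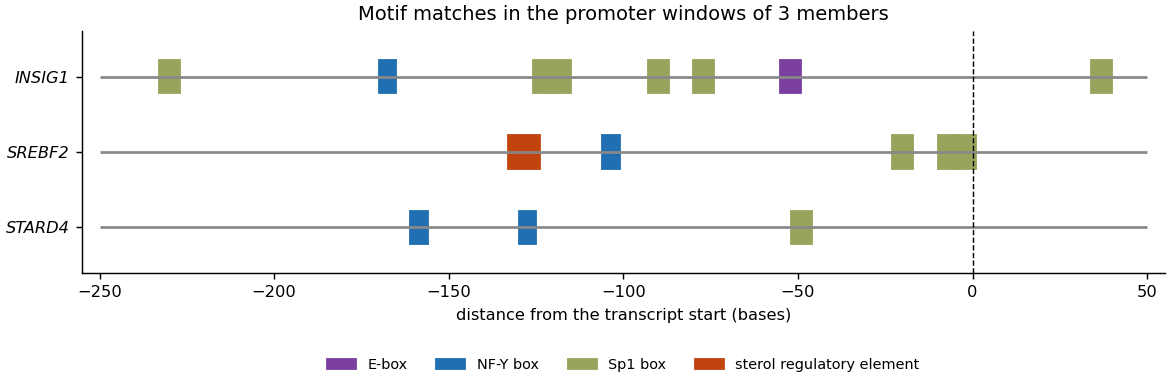
Positions of motif matches (coloured boxes) in the promoter windows of INSIG1, SREBF2 and STARD4, with distance from the transcript start in bases on the horizontal axis and the start as a dashed line. SREBF2 alone among these 3 matches the sterol regulatory element as spelled here (TCACNCCAC), at -133 to -125, while every window holds a CCAAT box. Other spellings of the element were not searched.

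The values are log2 signals after the authors' normalization, so that 1 unit is a doubling, and levels were compared only within a gene. INSIG1 gave 11.52 and 11.33 on the vector arrays, 8.85 and 8.85 with shRNA1, and 10.79 and 10.57 with shRNA2. The 3 groups did not overlap, with vector highest, shRNA2 between and shRNA1 lowest. Against vector, INSIG1 was lower by 5.94-fold with shRNA1 (log2 difference -2.57, SE 0.16) and by 1.67-fold with shRNA2 (log2 difference -0.74, SE 0.16). In the study's own list of top genes, which compares each shRNA with vector, the direction for INSIG1, SREBF2, STARD4 and GRAMD1B is the reverse of the one found here. The directions here follow the group labels of the arrays, and so do those of all other genes below. LincIN had no named probe set and was not analysed here, so the labels could not be checked against its level.

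SREBF2 gave 9.83 and 9.67 with vector, 8.39 and 8.41 with shRNA1, and 8.99 and 8.69 with shRNA2. The order was that of INSIG1, and the groups again did not overlap. The signal was 2.54-fold lower with shRNA1 (log2 difference -1.34, SE 0.17) and 1.87-fold lower with shRNA2 (log2 difference -0.91, SE 0.17). Between the hairpins SREBF2 differed by 0.44 on the log2 scale, against an SD of 0.21 between the 2 shRNA2 arrays.

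STARD4 gave 10.18 and 10.41 with vector, 8.60 and 8.59 with shRNA1, and 9.67 and 9.80 with shRNA2. It had the same order without overlap. The signal was 3.25-fold lower with shRNA1 (log2 difference -1.70, SE 0.16) and 1.48-fold lower with shRNA2 (log2 difference -0.56, SE 0.16).

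GRAMD1B went the other way. Its signals were 6.77 and 6.28 with vector, 8.79 and 8.38 with shRNA1, and 8.45 and 8.54 with shRNA2. All 4 shRNA arrays lay above both vector arrays, and the shRNA2 arrays lay within the range of the shRNA1 arrays. The signal was 4.18-fold higher with shRNA1 (log2 difference 2.06, SE 0.22) and 3.91-fold higher with shRNA2 (log2 difference 1.97, SE 0.22). The vector arrays of GRAMD1B were also the most spread of any group among the 4 genes (SD 0.34, n = 2).

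**Figure D2:**
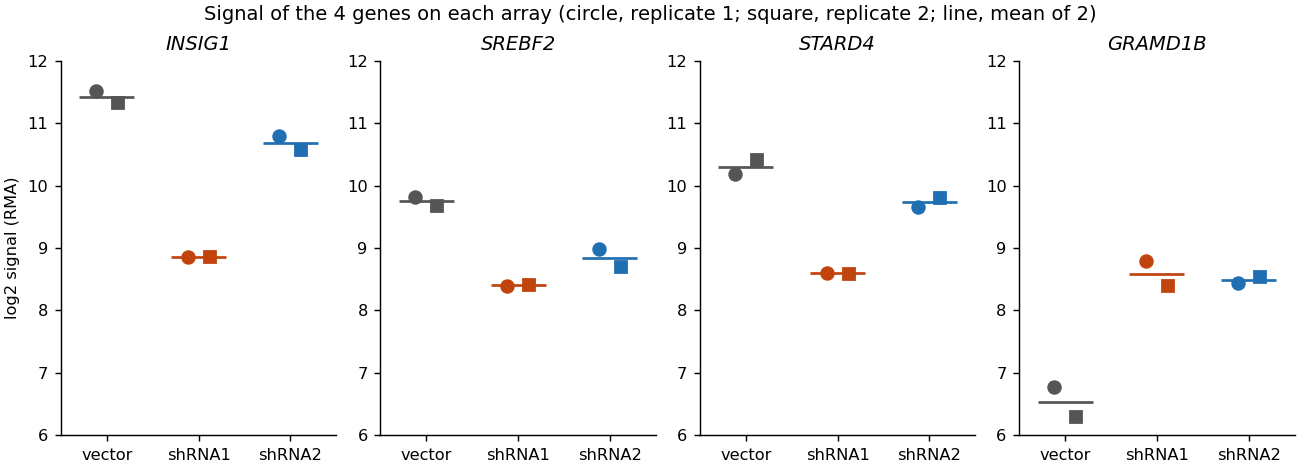
Log2 signal (vertical axis) of INSIG1, SREBF2, STARD4 and GRAMD1B on each of the 6 arrays, by group, with a line at the mean of 2 arrays. INSIG1, SREBF2 and STARD4 step down from vector through shRNA2 to shRNA1, from 11.42 through 10.68 to 8.85 for the INSIG1 means, whereas both shRNA groups of GRAMD1B stand near 8.5.

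The genes thus differed in how far the hairpins separated. INSIG1 was 3.55-fold higher with shRNA2 than with shRNA1 (log2 difference 1.83, SE 0.16) and STARD4 2.20-fold higher (log2 difference 1.14, SE 0.16). For SREBF2 the ratio was 1.35-fold (log2 difference 0.44, SE 0.17), and for GRAMD1B shRNA2 and shRNA1 differed by less than the spread of the shRNA1 arrays (log2 difference -0.10, SE 0.22, against an SD of 0.29).

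A joint limma fit of the 3 groups over the 16098 named probe sets, with Benjamini-Hochberg adjusted p under 0.05, gave the background for these genes. With shRNA1, 1.37% of all named probe sets were called lower and 0.497% higher, and the call fell on INSIG1, SREBF2 and STARD4 (3 lower) and on GRAMD1B (1 higher). With shRNA2, 1.5% were called lower and 1.07% higher, with SREBF2 among the former and GRAMD1B among the latter. Between the hairpins 0.00621% were called lower with shRNA2 and 0% higher, none of them among the 4 genes. Arrays of the groups that did not overlap were common over all named probe sets. With shRNA1, 15% lay wholly below vector, as 3 of the 4 genes did, and 21.7% wholly above, as GRAMD1B did. With shRNA2, 30.6% lay wholly below and 21.6% wholly above vector, again with 3 and 1 of the 4 genes. With shRNA2 set against shRNA1, 32.2% lay wholly below, none of the 4 genes among them, and 18% wholly above, including INSIG1, SREBF2 and STARD4. Since the genes were selected on these contrasts, nothing is read from their counts. The calls with shRNA1 fell from 4 to 3, with SREBF2 lost, when vector replicate 1 or either shRNA1 array was left out. The same loss was seen with adjustment over all probe sets. With shRNA2, the call of SREBF2 was gone whichever of the 6 arrays was left out, and GRAMD1B without either shRNA2 array. SREBF2 also lost the shRNA2 call in the pairwise fit, under quantile normalization and with adjustment over all probe sets. The methods' t-test after adjustment called 0 of the 4 in any comparison. Over all named probe sets that test called only 1 with shRNA1, 2 with shRNA2 and 2 between the hairpins. A count of 0 from it is therefore not read as a result. With the replicate number as a block, INSIG1 was called with shRNA2 as well, and INSIG1 and STARD4 between the hairpins, where INSIG1 was also called under centring, with an intensity trend and with 1 probe set per gene. The block also called 2 genes of the sterol lists below in each comparison.

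The closest relatives of the members are given beside them, with no comparison drawn, since the members were selected on these contrasts and their paralogs were not. INSIG2, the second INSIG protein, gave 8.08 and 9.26 with vector, 8.10 and 9.25 with shRNA1 and 9.75 and 9.75 with shRNA2. Its vector and shRNA1 arrays fell into the same low and high pair by replicate number, and both shRNA2 arrays lay above them. Its log2 difference was 0.00 with shRNA1 (adjusted p = 0.999) and 1.08 with shRNA2 (adjusted p = 0.270), so neither passed the limma test. SREBF1, which encodes the SREBPs that favour fatty acid genes, gave 7.93 and 8.12 with vector, 7.65 and 7.95 with shRNA1 and 8.34 and 8.18 with shRNA2. The vector and shRNA1 arrays of SREBF1 overlapped, and its log2 differences were -0.23 (adjusted p = 0.712) and 0.24 (adjusted p = 0.520).

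Of the sterol carriers related to STARD4, STARD5 differed by 0.53 with shRNA1 (adjusted p = 0.336) and 0.51 with shRNA2 (adjusted p = 0.225) on the log2 scale, and STARD6 by -0.28 (adjusted p = 0.705) and -0.10 (adjusted p = 0.872). The signal of STARD6 was between 2.82 and 3.47 on the 6 arrays, close to the lowest value of the table, 1.79. GRAMD1A, the Aster-A protein, differed by -0.10 (adjusted p = 0.905) and -0.14 (adjusted p = 0.731). GRAMD1C, Aster-C, differed by -0.17 (adjusted p = 0.833) and 0.57 (adjusted p = 0.197). None of the 6 paralogs passed the adjusted threshold in either comparison, beside the low shares of all named probe sets given above. At an unadjusted p under 0.05 there was 1 higher with shRNA1 and 2 higher with shRNA2. The methods' t-test with the same adjustment called 0, but it called only 1 and 2 of all named probe sets in these comparisons.

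**Figure D3:**
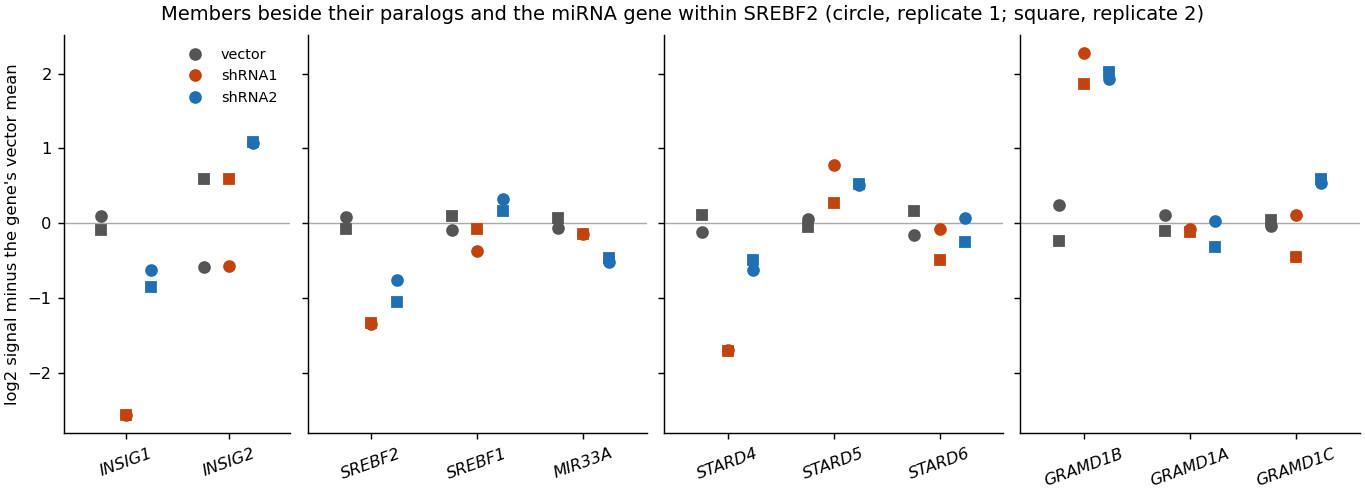
Log2 signal on each array minus the gene's own vector mean (vertical axis) for each member, its paralogs and MIR33A, coloured by group. INSIG1 sits at -2.57 with shRNA1 while the vector and shRNA1 arrays of INSIG2 split by replicate number.

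SREBF2 carries a microRNA gene, MIR33A, within an intron. In GRCh38.p14 SREBF2 spans chr22:41833105-41907305 and MIR33A chr22:41900944-41901012. Its main product, hsa-miR-33a-5p, is known to repress the cholesterol exporter ABCA1. It is shown here, with bases 2 to 8, the seed, in capitals, because host and microRNA are made from 1 primary transcript.
hsa-miR-33a-5p: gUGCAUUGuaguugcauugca
The MIR33A probe set gave 3.68 and 3.82 with vector, 3.61 and 3.61 with shRNA1 and 3.23 and 3.28 with shRNA2. Both shRNA groups lay below vector and shRNA2 was the lowest, the reverse of the order of the hairpins for SREBF2. The log2 differences were -0.14 with shRNA1 (adjusted p = 0.801) and -0.50 with shRNA2 (adjusted p = 0.128). These signals were near the lowest of the table, and a probe set of this kind may register the primary transcript, the hairpin or the mature form.

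Further genes of the sterol system were grouped by role in 5 lists, of which 46 of 77 genes had a named probe set, and the other 31 were not analysed here. The lists leave out the members, which share these roles and were chosen by their values. The counts of calls in the lists are therefore partly set by that choice. In limma 0 of the 46 were called in any of the 3 comparisons. Over all named probe sets limma called 1.37% lower and 0.497% higher with shRNA1, and 1.5% and 1.07% with shRNA2. Between the hairpins it called 0.00621% lower and 0% higher. The 0 of the lists is near these shares, so nothing is read from it. The methods' t-test with the same adjustment also called 0, but it called only 1, 2 and 2 of all named probe sets in these comparisons. At an unadjusted p under 0.05 there were 5 lower and 4 higher with shRNA1, 9 lower and 4 higher with shRNA2, and 7 lower and 3 higher between shRNA2 and shRNA1. Over all named probe sets the shares at that level were 6.08% lower and 6% higher with shRNA1, 11.1% and 7.49% with shRNA2, and 10.2% and 5.42% between the hairpins. The median log2 difference of the 46 was -0.04 with shRNA1, beside 0.05 over all named probe sets, and -0.04 with shRNA2, beside -0.04.

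Among the 12 genes measured of SREBP sensing and processing, 5 lay below and 7 above vector with shRNA1, and 7 below and 5 above with shRNA2. SCAP, the escort of SREBPs, gave 8.81 and 8.78 with vector, 8.96 and 9.04 with shRNA1 and 8.63 and 8.59 with shRNA2. Its arrays were thus above vector with shRNA1 and below it with shRNA2, and neither difference passed the test (0.20, adjusted p = 0.672, and -0.19, adjusted p = 0.552). MIR33B, the microRNA gene within SREBF1, had the largest difference of the list after INSIG2, 0.58 with shRNA1 (adjusted p = 0.491), with a log2 difference of -0.14 with shRNA2 (adjusted p = 0.855).

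The 23 genes measured of intracellular sterol transfer ranged from -0.72 to 0.53 on the log2 scale with shRNA1 and from -0.79 to 0.57 with shRNA2. OSBPL10, an oxysterol-binding protein relative, gave 8.12 and 8.01 with vector, 7.32 and 7.37 with shRNA1 and 7.46 and 7.40 with shRNA2. Every shRNA array of OSBPL10 lay below both vector arrays, and its log2 differences of -0.72 (adjusted p = 0.0642) and -0.63 (adjusted p = 0.0735) missed the threshold. OSBPL7 differed by 0.03 with shRNA1 (adjusted p = 0.977) and -0.79 with shRNA2 (adjusted p = 0.108). OSBP, which exchanges sterol for a phosphoinositide at the Golgi and was named after its values were seen, differed by -0.58 (adjusted p = 0.126) and -0.62 (adjusted p = 0.0741).

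Lipoprotein uptake had 4 genes measured of 10. MYLIP, a ubiquitin ligase that marks the LDL receptor for degradation, differed by 0.67 with shRNA1 (adjusted p = 0.102) and 0.33 with shRNA2 (adjusted p = 0.313). VLDLR, a lipoprotein receptor, gave 8.15 and 8.48 with vector, 7.77 and 7.92 with shRNA1 and 8.61 and 8.63 with shRNA2. It lay below vector with shRNA1 (-0.47, adjusted p = 0.314) and above it with shRNA2 (0.30, adjusted p = 0.406).

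Sterol efflux had 3 genes measured of 10. LPCAT3, a phospholipid acyltransferase under control of the sterol receptor LXR, differed by -0.30 (adjusted p = 0.524) and -0.28 (adjusted p = 0.392). APOD, a lipocalin of lipoproteins, differed by 0.29 (adjusted p = 0.536) and -0.07 (adjusted p = 0.859).

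Of sterol storage and hydroxylation, 4 of 10 genes were measured. CH25H, which makes 25-hydroxycholesterol, an oxysterol that binds INSIG proteins, gave 5.44 and 5.58 with vector, 6.48 and 6.34 with shRNA1 and 5.75 and 5.41 with shRNA2. Both shRNA1 arrays and 1 of the shRNA2 arrays stood above both vector arrays. The log2 difference was 0.90 with shRNA1 (adjusted p = 0.0565) and 0.08 with shRNA2 (adjusted p = 0.876). SOAT1, which esterifies cholesterol for storage, differed by -0.56 (adjusted p = 0.186) and -0.41 (adjusted p = 0.238).

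The enzymes of cholesterol synthesis, the best known SREBP targets, are given for comparison. Their directions, too, rest on the group labels of the arrays. Of 20 enzymes 14 were measured, by 15 probe sets, and 7 of these were called lower with shRNA1 and 3 with shRNA2, with 0 called higher in either. Their median log2 difference was -1.25 with shRNA1 and -0.63 with shRNA2. HMGCS1, which makes the precursor of mevalonate, gave 9.84 and 10.09 with vector, 6.94 and 7.43 with shRNA1 and 8.11 and 8.22 with shRNA2. With shRNA1 HMGCS1 fell by 2.78 on the log2 scale (limma adjusted p = 0.00200). With shRNA2 it fell by 1.80 (adjusted p = 0.00756), the order of the groups being that of INSIG1. SQLE, the squalene epoxidase, fell by 1.71 (adjusted p = 0.00613) and 1.08 (adjusted p = 0.0332). DHCR7, the last step of 1 branch of the pathway, fell by 1.75 (adjusted p = 0.00862) and 1.27 (adjusted p = 0.0285). MSMO1, IDI1 and HSD17B7 fell with shRNA1, by 1.64 (adjusted p = 0.0387), 1.29 (adjusted p = 0.0266) and 1.27 (adjusted p = 0.0401), and with shRNA2 gave log2 differences of -0.60, -0.57 and -0.63 that missed the threshold. With shRNA2 set directly against shRNA1, 0 of the 15 were called in limma or by the methods' t-test after adjustment, 7 were higher at an unadjusted p under 0.05, and the median log2 difference was 0.48, beside -0.08 over all named probe sets. The calls of HMGCS1, SQLE and DHCR7 with shRNA2 were lost without either shRNA2 array, those of SQLE and DHCR7 also without either vector array, and that of DHCR7 with shRNA1 without vector replicate 1 (adjusted p = 0.0548). MSMO1, IDI1 and HSD17B7 each lost their call with shRNA1 without 5 of the 6 arrays, taken 1 at a time. The earlier results that led to the choice of the 4 genes included these enzymes, so their counts are not independent evidence.

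**Figure D4:**
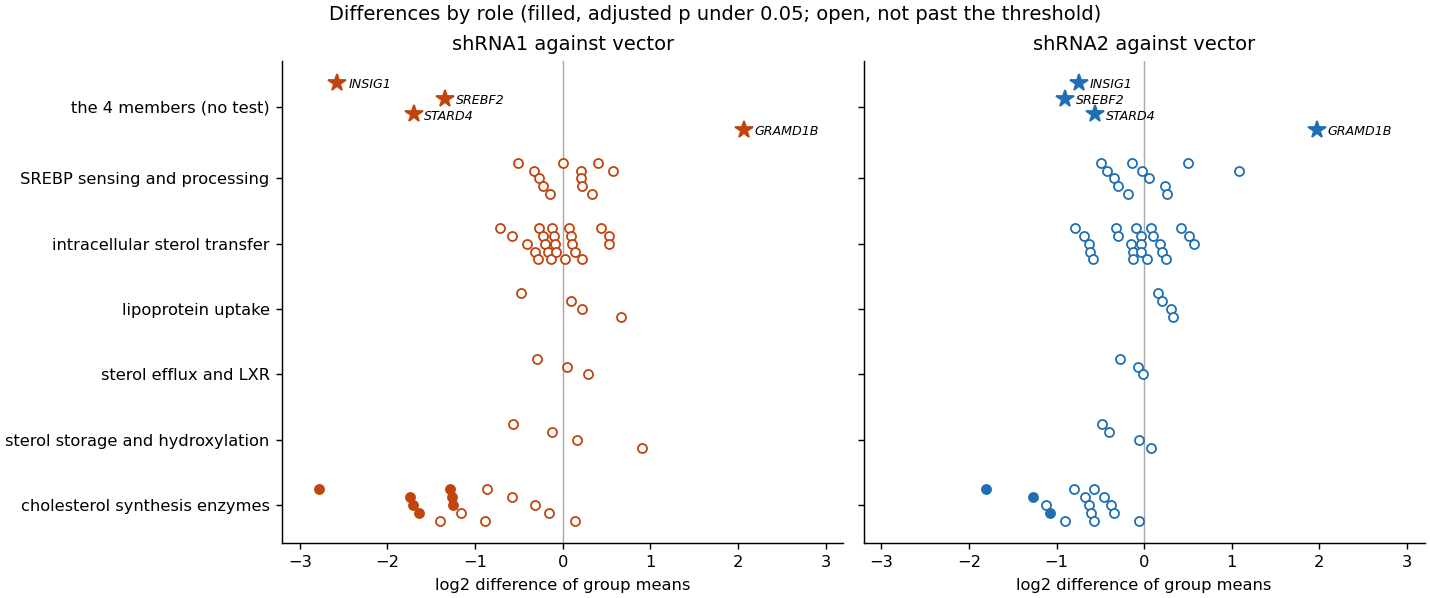
Log2 difference of group means against vector (horizontal axis) for the 4 members (stars) and for the probe sets of 6 lists (circles, filled past an adjusted p of 0.05), shRNA1 on the left and shRNA2 on the right. The first 5 lists hold 0 filled circles on either side. Over all named probe sets 1.37% were called lower and 0.497% higher with shRNA1, and 1.5% and 1.07% with shRNA2. Within the 6 lists, filled circles are found only among the synthesis enzymes, 7 with shRNA1 and 3 with shRNA2. The members were chosen by their values, are left out of the lists and carry no test.

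The CCAAT box and the Sp1 box were also counted in the promoters of these lists, which have several starts for some genes. For the synthesis enzymes measured, 12 of 16 promoters (75.0%) held a CCAAT box and 14 of 16 (87.5%) a GGGCGG box. For the 5 other lists these were 19 of 55 (34.5%) and 36 of 55 (65.5%). No promoter of either set matched the sterol regulatory element as spelled here, and of the 3 members searched SREBF2 alone had a match. Since even the synthesis enzymes had no match to this spelling, a missing match is not read as absence of an SREBP site. GRAMD1B was not searched.

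The neighbours of the members on the chromosomes, taken as the nearest gene on each side with a named probe set, and genes overlapping them, were listed next. CCDC134, 941 bases from SREBF2, differed by 0.43 with shRNA1 (adjusted p = 0.354) and -0.00 with shRNA2 (adjusted p = 0.998). SHISA8, on the other side of SREBF2, differed by 0.26 (adjusted p = 0.580) and 0.34 (adjusted p = 0.271). STARD4-AS1, the antisense transcript that overlaps the 5′ end of STARD4, gave 6.90 and 7.03 with vector, 7.04 and 7.15 with shRNA1 and 7.17 and 7.33 with shRNA2, and CAMK4, on the other side, differed by -0.21 (adjusted p = 0.743) and 0.11 (adjusted p = 0.821). The STARD4-AS1 arrays lay below vector in neither shRNA group. NREP, 216267 bases from STARD4, rose with shRNA2 by 1.01 on the log2 scale (adjusted p = 0.0369), which no longer passed whichever of the 6 arrays was left out (adjusted p up to 0.320), and differed by 0.52 with shRNA1 (adjusted p = 0.273). The nearest such genes on either side of INSIG1 and GRAMD1B lay between 96147 and 292175 bases away. Of these, PAXIP1-DT, EN2, CLMP and ZNF202 had log2 differences between -0.30 and 0.45, none past the threshold. MIR4493, a microRNA gene within GRAMD1B, differed by 0.10 with shRNA1 (adjusted p = 0.920) and 0.74 with shRNA2 (adjusted p = 0.117).

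The genes whose log2 signals followed each member most closely over the 6 arrays were taken by Pearson r among probe sets with an SD at least 0.5 times that of the member. With 2 arrays in each of 3 groups, r rests mainly on the group means, so the values describe likeness only. For INSIG1 these were SCD (r = 0.994), TCP11L2 (0.992), CCDC68 (0.985), EDN1 (0.985) and STARD4 itself (0.982), among 568 probe sets. SCD, the stearoyl-CoA desaturase, is another SREBP target. It gave 13.32 and 13.07 with vector, 11.58 and 11.52 with shRNA1 and 12.99 and 12.67 with shRNA2. The order was that of INSIG1, which a ranking by r favours. The log2 difference of SCD was -1.65 with shRNA1 but only -0.36 with shRNA2 (SE 0.18 for each). The most opposite were SCG5 (r = -0.972) and FZD7 (-0.942). For STARD4 the closest were PLLP (r = 0.996), EDN1 (0.995), IL18 (0.994), SASH1 (0.990) and ANKRD1 (0.988) of 2256, and the most opposite CEMIP (-0.981) and ZNF800 (-0.973). EDN1, which encodes endothelin, was thus near both.

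For SREBF2 the closest were RIN2 (r = 0.996), CXCL8 (0.994), PHLPP1 (0.993), OVCH2 (0.993) and CST4 (0.992) of 4185 probe sets, and FAF1 (-0.996) and CROT (-0.993) were the most opposite. No synthesis enzyme was among the genes listed for any member, and only the first ranks at either end were listed. For GRAMD1B the closest were STK26 (r = 0.999), RGS4 (0.994), PDE7B (0.993), the complement component C3 (0.992) and PON2 (0.992) of 831. C3 gave 6.45 and 6.23 with vector, 8.29 and 7.91 with shRNA1 and 8.19 and 7.99 with shRNA2, so that the hairpins stood level, as for GRAMD1B. DUSP1, an immediate early phosphatase, was the most opposite (r = -0.998), followed by CCN3 (-0.996).

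Over the whole series, the 6 array medians lay between 6.12 and 6.30. The SD of the difference between the 2 arrays of a group over named probe sets was 0.40 for vector, 0.40 for shRNA1 and 0.23 for shRNA2. With no detection calls and no comparison of levels between probe sets, the markers could not show which cell types were present, and only their differences between groups are given. Of the 7 mesenchymal probe sets, 0 were called with either hairpin in limma and 3 with shRNA1 and 2 with shRNA2 had an unadjusted p under 0.05. ZEB1 was lower in both, with log2 differences of -0.54 and -0.44, while FN1 differed by 0.82 with shRNA1 and -0.60 with shRNA2, and by -1.42 between the hairpins (adjusted p = 0.0594). Of the markers of other cell types, 0 of 7 epithelial probe sets, 0 of 1 hematopoietic and 0 of 2 hepatocyte and steroidogenic probe sets were called with either hairpin in limma, and 1 epithelial probe set had an unadjusted p under 0.05 in each, GATA3 with shRNA1 and EPCAM with shRNA2. Of 3 endothelial probe sets, KDR fell by 1.52 on the log2 scale (shRNA1, adjusted p = 0.0125) and by 1.54 (shRNA2, adjusted p = 0.0123). Both calls were lost without vector replicate 1 or without either array of the hairpin compared. The defining endothelial markers PECAM1 and VWF stayed between 5.12 and 5.88 on all arrays. The summed log2 signal of these 3 ran from 18.4 to 19.2 with vector, 17.0 to 17.8 with shRNA1 and 16.7 to 17.3 with shRNA2, and its part in the results above was not tested.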

How the data were processed

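RNA of 6 samples (2 arrays each for vector, shRNA1 and shRNA2) was hybridised to Human Gene 2.0 ST arrays, with 250 ng of total RNA per array. The authors deposited log2 values made with RMA in the Affymetrix Expression Console, that is, after background correction, quantile normalization of the probes over the arrays and summary to 1 value per probe set. No version is given in the sources used here, and there are no detection calls. Of 53617 probe sets, the 16098 paired with exactly 1 gene symbol were tested. Group means were fitted together in limma 3.58.1 (R 4.3.3; lmFit, eBayes, two-sided) with Benjamini-Hochberg adjustment at 0.05, after the fit was tested on simulated data. The methods name BRB-ArrayTools without the test. "The methods' t-test" is a label used here for a 2-sample test with equal variance, which the study does not state for its arrays. The arrays' small number limits the precision.

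The members and lists were chosen with earlier results of these data known. Besides the members, the genes named were their paralogs, MIR33A, up to 6 probe sets past the threshold and the 2 largest differences of each list, chromosomal neighbours, and the 5 most like and 2 most opposite probe sets. Promoter and microRNA sequences came from RefSeq (GRCh38.p14), where 3 of the 4 members matched. The alternatives were a pairwise fit, the t-test, an unadjusted p under 0.001 (the threshold in the study), an intensity trend, all probe sets, 1 probe set per gene, a filter on the dimmest 25%, a replicate block, median centring, quantile normalization, a 150-base promoter window and leaving out each array. Python 3.11.15, NumPy 2.4.6, pandas 2.3.3 and matplotlib 3.10.9 were used.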

Additional observations from a re-analysis of the deposited data

Results flagged for a closer look

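In 4 genes of the sterol lists every array moved one way from vector with shRNA1 and the opposite way with shRNA2. These were 4 of 46 genes (8.7%), and 763 of all 16098 named probe sets (4.74%) did the same. The log2 difference of shRNA2 over shRNA1 was -0.39 for SCAP (limma adjusted p = 0.261), -0.63 for UBE2G2 (0.160), -0.34 for OSBPL1A (0.342) and 0.77 for VLDLR (0.134). None of these adjusted p-values passed the threshold. UBE2G2, a ubiquitin-conjugating enzyme that acts with the ligases that degrade INSIG1 and HMG-CoA reductase, gave 9.08 and 9.09 with vector, 9.56 and 9.29 with shRNA1 and 8.76 and 8.83 with shRNA2. OSBPL1A, an oxysterol-binding protein relative of late endosomes, gave 9.08 and 9.16 with vector, 9.24 and 9.43 with shRNA1 and 9.02 and 8.97 with shRNA2.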

How the results depend on the processing

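The log2 differences of the 4 members kept their sign against vector under median centring, quantile normalization, the replicate block and each array left out, with INSIG1 between -2.67 and -2.47 for shRNA1 and between -0.85 and -0.63 for shRNA2. STARD4 between the hairpins moved from 1.14 to 1.24 under centring, beside a pooled replicate SD of 0.108. Centring shifts every probe set of a comparison alike, and INSIG1 between the hairpins moved from 1.83 to 1.93. GRAMD1B between the hairpins ran from -0.30 to 0.11, either side of 0. Counts of calls depended on the setting. With shRNA1, 301 named probe sets were called, against 111 in the pairwise fit, 99 with adjustment over all probe sets, 38 by the methods' t-test at p under 0.001, 1 by that test after adjustment, and 111 to 138 without 1 array. With shRNA2, 414 were called, against 142 over all probe sets, 65 and 2 by the t-test at its 2 thresholds, and 6 to 392 without 1 array, the lowest of these when a shRNA2 array was left out. Between shRNA2 and shRNA1, 1 was called, against 0 in the pairwise fit, 0 over all probe sets, 15 with an intensity trend, 28 with 1 probe set per gene, 2 under centring, 165 at an unadjusted p under 0.001, 46 and 2 by the t-test, and 0 to 0 without 1 array. With the replicate block the counts were 535, 1180 and 370. The labels do not tie a number to an experiment. The differences between replicates 1 and 2 correlated over probe sets at 0.626 between vector and shRNA1, at 0.145 between vector and shRNA2 and at 0.150 between shRNA1 and shRNA2. All 3 were above 0 but those with shRNA2 were low, and whether the numbers pair the arrays was not settled.

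In the 5 sterol lists, the count of 0 became 1 with shRNA1 without the dimmest probe sets and under centring (OSBPL10 in both), and 2 in each comparison with the replicate block, OSBPL10 and CH25H with shRNA1, OSBP and OSBPL10 with shRNA2, and CH25H and VLDLR between the hairpins. The synthesis enzyme count of 7 with shRNA1 was 3 in the pairwise fit and over all probe sets, 0 by the t-test at either threshold, and 3 to 5 without 1 array. The count of 3 with shRNA2 was 1 over all probe sets, 0 by the t-test at either threshold, and 0 to 4 without 1 array. Between the hairpins the replicate block called 2, MSMO1 and HMGCS1. The cause of these changes was not tested, beyond the smaller number of arrays or larger number of probe sets that a setting implies. In the 150 bases before the start, the shares of promoters with a motif were 0.552% for the sterol regulatory element, 4.57% for the E-box, 23.5% for the CCAAT box and 36.8% for the Sp1 box, and the CCAAT box of INSIG1 and the first of STARD4 fell outside. With 2 arrays a group and no detection calls, small differences and dim probe sets such as MIR33A and STARD6 could not be resolved.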
